A study of Mus musculus with 24 samples.

Results

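The sirtuins are a family of 7 mammalian enzymes, Sirt1 to Sirt7, and their transcripts were followed in whole blood of mice with and without Parp1, 24 h after X rays. The members were taken by gene name, as a family picked for description with earlier results of these data known. All 7 were on the array, through 11 probes, and all 7 passed the filter on dim signals, among 13051 genes tested of 24325 named on the array. Sirtuins use NAD+ to remove acetyl and longer acyl groups from lysines, and some transfer ADP-ribose instead. Parp1, the enzyme missing in the knockout, uses the same NAD+ to build poly(ADP-ribose) chains at DNA breaks, so both families draw on one cofactor. In mammals Sirt1, Sirt6 and Sirt7 work mainly in the nucleus, Sirt2 mainly in the cytosol, and Sirt3, Sirt4 and Sirt5 in mitochondria.

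Male 129S/J mice, Wild Type or Parp1-/-, were irradiated or mock-irradiated and killed 24 h later, and the RNA of each mouse was hybridised to a 1-colour Agilent array. Wild-type mice received 0, 6 or 8.8 Gy and knockout mice received 0 or 6 Gy, with 5 mice in each group except wild-type 8.8 Gy, which had 4. A dose of 8.8 Gy in wild-type mice and 6 Gy in Parp1-/- mice is the LD50/30, the dose that kills 50% of the mice within 30 days. All groups share the strain, the sex, the collection of blood by cardiac puncture into a PAXgene solution and the removal of globin RNA. The sources used here do not give the age of the mice or the construction of the Parp1 allele, and the Parp1-/- animals lack the gene in every cell, not in blood alone.

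A level is the log2 processed signal of a gene's brightest probe minus the 75th percentile of its array, so 0 marks a signal equal to that percentile and a step of 1 is a doubling. Levels of different probes depend on the probe and are not compared with each other. Differences are log2 differences of group means with the moderated standard error (SE) of limma, a linear model fitted over all 24 arrays. A gene is said to have risen or fallen where limma's p, adjusted by the Benjamini-Hochberg method over the 13051 genes, was under 0.05.

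Between 36.6% and 57.8% of the probes were well above background per array, with the lowest shares in the knockout 0 Gy group (36.6% to 41.8%). Parp1 was well above background on 5 of 5 wild-type 0 Gy arrays, on 3 of 5 at 6 Gy, on 3 of 4 at 8.8 Gy, on 0 of 5 knockout 0 Gy arrays and on 1 of 5 knockout 6 Gy arrays. That 1 array, the library labelled knockout 6 Gy replicate 1, was also nearly equal to the library labelled wild-type 8.8 Gy replicate 2. Over 10767 probes, the log2 difference of these libraries had an SD of 0.167. The second closest of all pairs, knockout 0 Gy replicates 4 and 5, had 0.262, and the median pair 0.901. The library labelled wild-type 8.8 Gy replicate 4 had the lowest Parp1 level of the wild-type arrays (-3.95). The rises of Sirt3 and Sirt5 below are therefore also given without 2 arrays, called the 2 doubted arrays from here on. These are replicate 1 of the knockout 6 Gy label and replicate 4 of the wild-type 8.8 Gy label. Rises of other genes and of dimmer probes are not given without these arrays. Markers of blood cells were present, and those of hepatocytes ranged from a mean level of -2.95 to 7.98 between arrays, with all 10 of 10 detected on at least 1 array of every group. There were 10 slides and 4 scan days. The unirradiated wild-type arrays fell on day 4 and both irradiated wild-type groups on day 3, so radiation and scan day cannot be told apart within wild type. The knockout 0 Gy arrays were scanned on days 1 and 2, and shared no day with wild-type 0 Gy.

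The probes behind the main results are shown by their first 30 of 60 bases, as the array files give them, because the Sirt3 and Sirt5 results each rest on a single probe and those of Sirt6 depend on which of 2 probes is read. Coordinates are those of the array files, mm9. No annotation of that build was used here, so exon or UTR was not assigned. The Sirt3 probe lies at chr7:148049581-148049640 (minus strand), the Sirt5 probe at chr13:43490351-43490410 (plus strand), the brightest Sirt6 probe at chr10:81084531-81084589 (minus strand) and the other Sirt6 probe at chr10:81084850-81084909 (minus strand).
Sirt3: gcatgttgatcggtaaagtggcatctttaa
Sirt5: ccagcagcaaatgtgtttgatctggaagag
Sirt6 brightest: gccccaggctcccagaagctcccaatgcaa
Sirt6 other: gcctctactgtagtagggacagcgggcagg

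In the mitochondrial group, Sirt3 and Sirt5 rose in irradiated knockout blood, Sirt3 also rose in wild-type blood after 8.8 Gy, and no sirtuin passed the test in wild-type blood after 6 Gy. Sirt3, the main protein deacetylase of the mitochondrial matrix, was 2.64-fold higher in knockout blood at 6 Gy than at 0 Gy and 1.82-fold higher in wild-type blood at 8.8 Gy than at 0 Gy. Sirt5, which removes succinyl, malonyl and glutaryl groups from mitochondrial enzymes, was 2.46-fold higher in knockout blood at 6 Gy with dim signals raised to a background limit. That limit was used because 3 of 5 knockout 0 Gy arrays were not well above background for Sirt5. Their signals were raised to the lowest signal counted as well above background on the array, a setting chosen after seeing the data. The fold is not a lower bound over all settings, since under normexp background correction the log2 difference was 0.39. In bulk blood, a change in the number of cells of a type and a change in RNA per cell cannot be told apart.

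The Sirt3 level on the wild-type 0 Gy arrays was 3.42, 2.51, 2.51, 3.24 and 2.98 for replicates 1 to 5. At 6 Gy the wild-type arrays read 3.46, 3.39, 3.75, 2.85 and 3.19, and at 8.8 Gy they read 3.86, 3.74, 3.55 and 4.02. The knockout arrays read 3.58, 2.17, 2.51, 2.39 and 2.13 at 0 Gy, and 3.84, 3.76, 4.11, 3.68 and 4.40 at 6 Gy. Every knockout 6 Gy array lay above every knockout 0 Gy array, every wild-type 8.8 Gy array lay above every wild-type 0 Gy array, and the wild-type 6 Gy arrays overlapped the wild-type 0 Gy arrays. In order of group means, Sirt3 was highest in knockout 6 Gy (3.96 ± 0.297, SD), then wild-type 8.8 Gy (3.79 ± 0.197), wild-type 6 Gy (3.33 ± 0.336), wild-type 0 Gy (2.93 ± 0.415) and knockout 0 Gy (2.56 ± 0.595). Of the 4 steps in that order, the one from wild-type 8.8 Gy to wild-type 6 Gy (0.46) exceeded the larger of its SDs, and all 4 pairs of neighbours overlapped.

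**Figure D1:**
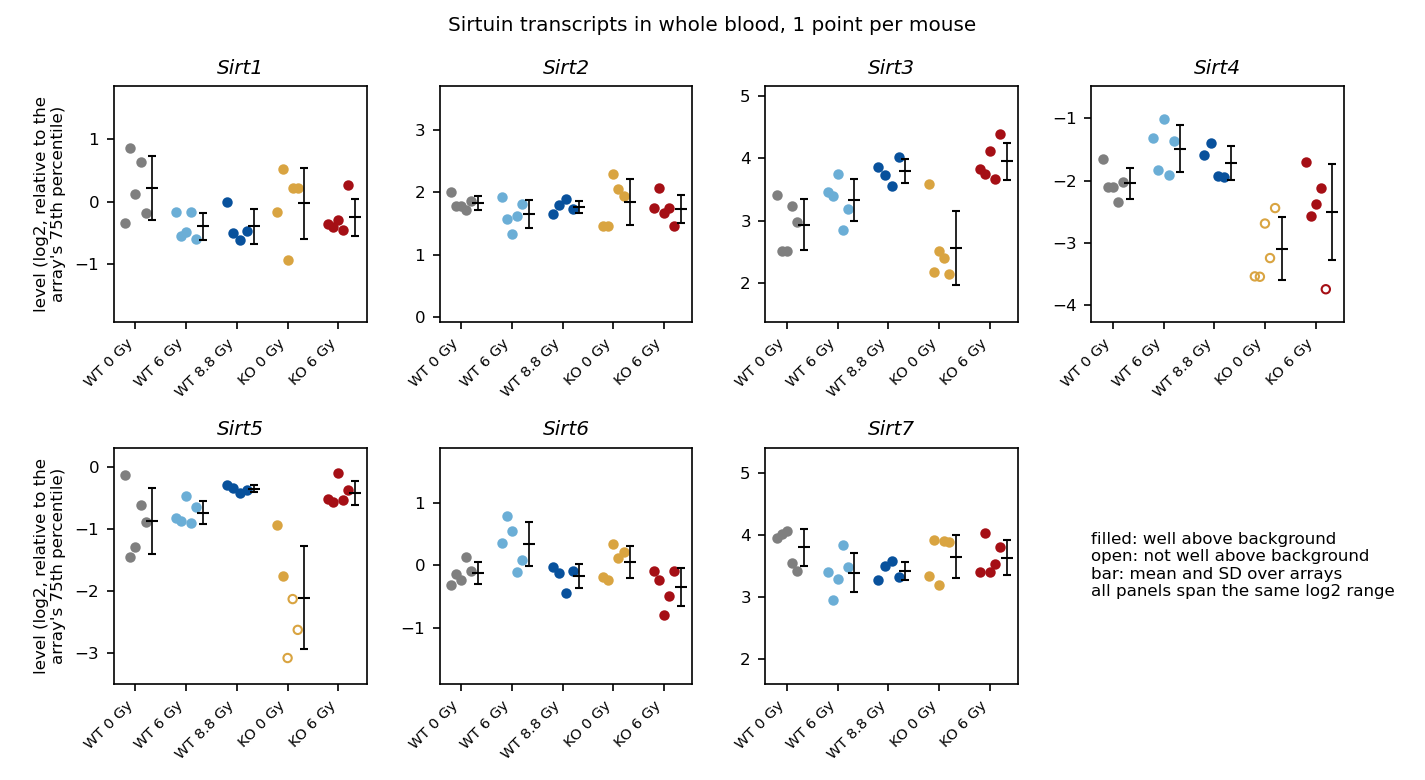
Level of each sirtuin (log2, relative to the array's 75th percentile) on the 24 arrays by group, 1 point per mouse, with the group mean and SD beside the points. Open points are not well above background. Sirt3 and Sirt5 sit lowest in the knockout 0 Gy group, whose 5 Sirt4 points are all open.

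Sirt5 read -0.12, -1.46, -1.28, -0.61 and -0.89 on the wild-type 0 Gy arrays, -0.82, -0.87, -0.46, -0.90 and -0.65 at 6 Gy, and -0.29, -0.33, -0.42 and -0.37 at 8.8 Gy. On the knockout arrays it read -0.93, -1.75, -3.08, -2.13 and -2.62 at 0 Gy, and -0.51, -0.57, -0.10, -0.53 and -0.36 at 6 Gy. Its signal was well above background on 2 of 5 knockout 0 Gy arrays (replicates 1 and 2) and on every array of the other groups. The irradiated knockout arrays lay above all knockout 0 Gy arrays, and all but 1 of the knockout 0 Gy arrays lay below every wild-type array. The 4 wild-type 8.8 Gy arrays were the tightest set (mean -0.35 ± 0.0536, SD), against 0.534 for the SD at 0 Gy and 0.824 in knockout 0 Gy blood.

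In the knockout response, 2 of 7 sirtuins rose and 0 fell, against a background of 22.8% of all tested genes called (12.3% called higher). With 7 members, that share is not far from the background, and the result is about Sirt3 and Sirt5 one by one. The Sirt3 difference was 1.40 ± 0.262 (SE, limma adjusted p = 0.000683), with 5 of 5 irradiated arrays above the mean at 0 Gy. For Sirt5 the measured difference was 1.69 ± 0.297 (limma adjusted p = 0.000396), likewise with 5 of 5, and with dim signals raised to the background limit it was 1.30 ± 0.239 (adjusted p = 0.00064). Without the 2 doubted arrays the values were 1.43 (adjusted p = 0.00192) for Sirt3 and 1.71 (adjusted p = 0.00139) for Sirt5. The median over the 7 members was -0.02, or -0.11 with dim signals at that limit, against -0.07 over all tested genes.

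The arrays of the knockout response were mostly scanned on different days, and only day 1 held both groups, with 1 irradiated and 2 unirradiated arrays on 1 slide. Within that day Sirt3 was 1.52 higher and Sirt5 0.98 higher in the irradiated array. With scan day as a fixed block the differences were the same 1.52 (adjusted p = 0.165) and 0.98 (adjusted p = 0.368), and under normexp background correction the Sirt5 difference was 0.39 (adjusted p = 0.051), so these settings end the calls.

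In wild-type blood at 8.8 Gy, 1 of 7 sirtuins rose and 0 fell, where 16.1% of all tested genes were called (7.04% called higher). The Sirt3 difference was 0.86 ± 0.277 (SE, limma adjusted p = 0.0374), with 4 of 4 arrays above the 0 Gy mean. Sirt5 differed by 0.52 ± 0.315 and did not pass (adjusted p = 0.27). The Sirt3 call was the least firm of the rises: without the 2 doubted arrays it was 0.79 (adjusted p = 0.108), and it was also lost on leaving out wild-type 0 Gy replicate 2 (0.0957), 3 (0.0865) or 5 (0.059), or wild-type 8.8 Gy replicate 1 (0.0777), 2 (0.0755) or 4 (0.0966), where each bracket gives the adjusted p. With the labels' replicate number as a block it was 0.86 (adjusted p = 0.0539), and it turned negative under normexp background correction (-0.22) and with slide as a fixed block (-0.11). No scan day held arrays of both groups, and a fixed block for scan day, estimated through the other groups, gave a difference of 0.63 (adjusted p = 0.976).

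In wild-type blood at 6 Gy, 0 of 7 sirtuins were called, where 26.4% of all tested genes were, and 2 of 7 (Sirt1 and Sirt6) had an unadjusted p under 0.05, as had 39.8% of all tested genes. Sirt3 differed by 0.40 (95% confidence interval -0.14 to 0.94) and Sirt5 by 0.13 (-0.48 to 0.75). The difference between the responses of the genotypes to 6 Gy was tested as an interaction, in which 1 of 7 sirtuins was called, against 6.08% of all tested genes (0.919% higher in the knockout response). The Sirt5 response was larger in knockout than in wild-type mice by 1.55 ± 0.420 (SE, limma adjusted p = 0.0393), and by 1.58 without the 2 doubted arrays (adjusted p = 0.038). For Sirt3 the same term was 1.003 ± 0.370 and did not pass (adjusted p = 0.0929), except without knockout 0 Gy replicate 1 or with each array centred on its median (1.82, adjusted p = 0.00791). The Sirt5 interaction was lost on leaving out any 1 of 11 of the 24 arrays, namely knockout 0 Gy replicate 3, 4 or 5, knockout 6 Gy replicate 2, 3 or 4, wild-type 0 Gy replicate 1 or 5, and wild-type 6 Gy replicate 1, 2 or 3 (adjusted p from 0.0535 to 0.0824). With the replicate block it was 1.55 (adjusted p = 0.06), and under normexp background correction 0.45 (adjusted p = 0.149). The wild-type part of it lies wholly between scan days, and the call was lost with scan day as a fixed block (0.98, adjusted p = 1) and with slide as a fixed (1.74, adjusted p = 0.999) or random block (1.47, adjusted p = 0.0671). With dim signals at the background limit it was 1.16 (adjusted p = 0.029).

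**Figure D2:**
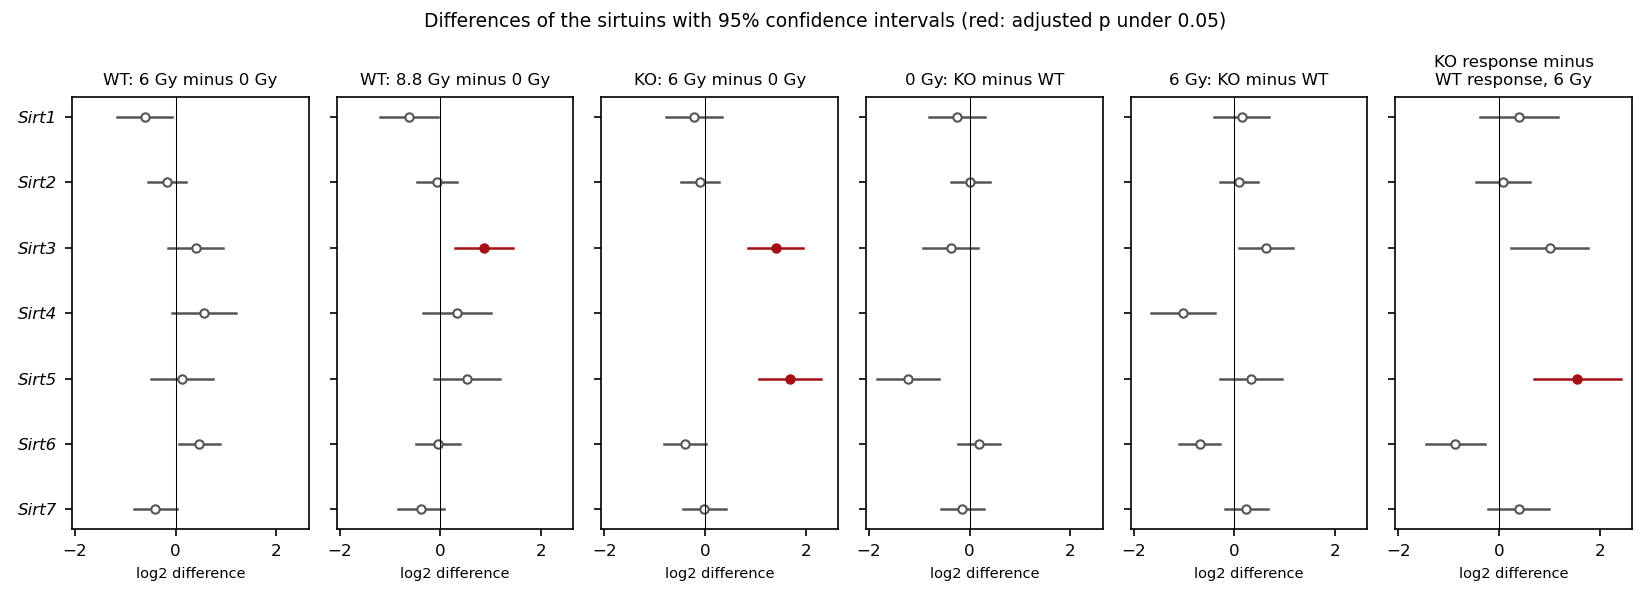
Log2 difference of each sirtuin in 6 comparisons with its 95% confidence interval from limma. Red filled points have an adjusted p under 0.05, which holds for Sirt3 in 2 comparisons and Sirt5 in 2. Sirt4 is left out where the comparison uses the knockout 0 Gy group, in which its probe gives only an upper bound.

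The knockout groups were also compared with wild type at matched and at equally lethal doses. Before irradiation, 0 of 7 sirtuins were called between the genotypes, where 0.682% of all tested genes were called. Sirt5 was lower in knockout 0 Gy than in wild-type 0 Gy blood by an amount that fell short of the threshold (-1.23 ± 0.297, SE, limma adjusted p = 0.0532), with 5 of 5 knockout arrays below the wild-type mean. It was called on leaving out knockout 0 Gy replicate 1, knockout 6 Gy replicate 3 or 5, or wild-type 0 Gy replicate 2, and with the hepatocyte score as a covariate (-1.15, adjusted p = 0.0472). Sirt5 was well above background on 2 of 5 knockout 0 Gy arrays. With dim signals at the background limit the difference shrank to -0.84 (adjusted p = 0.0714). Normexp correction gave -0.25 (adjusted p = 0.293) and a scan-day block -0.63 (adjusted p = 0.999). The difference was larger, but not called, under median centring (-1.41), a fixed slide block (-1.38) and quantile normalization (-1.30). At equally lethal doses, knockout 6 Gy against wild-type 8.8 Gy, 0 of 7 sirtuins and 0% of all tested genes were called by limma, with 1 sirtuin (Sirt4) and 268 genes (2.05%) at an unadjusted p under 0.05. There the Sirt3 difference was 0.16 (95% confidence interval -0.41 to 0.74) and that of Sirt5 was -0.06 (-0.72 to 0.59). The nearly equal libraries stand 1 in each group of this comparison. Without the 2 doubted arrays the differences were 0.27 for Sirt3 and -0.04 for Sirt5 (both adjusted p = 0.999), and within scan day 3, with 3 knockout and 4 wild-type arrays, they were 0.11 and -0.04. Under normexp background correction Sirt3 passed as higher in the knockout (1.31, adjusted p = 0.0053). The rises of Sirt3 in the 2 genotypes are measured against different 0 Gy groups, and the irradiated groups ended at overlapping levels.

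Sirt3 and Sirt5 varied together over the arrays. Pearson's r over the 24 arrays was 0.836 and Spearman's rho 0.857, and r was 0.788 without the 2 arrays farthest from the median Sirt3 level (knockout 0 Gy replicates 2 and 5). After subtracting the group means r was 0.713. Among 12983 genes ranked by their correlation with Sirt3, Sirt5 was number 45. These values are descriptions over arrays that share groups, slides and cell composition, and carry no p. The other 20 pairs of sirtuins ranged from -0.43 (Sirt2 with Sirt5) to 0.57 (Sirt1 with Sirt7).

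**Figure D3:**
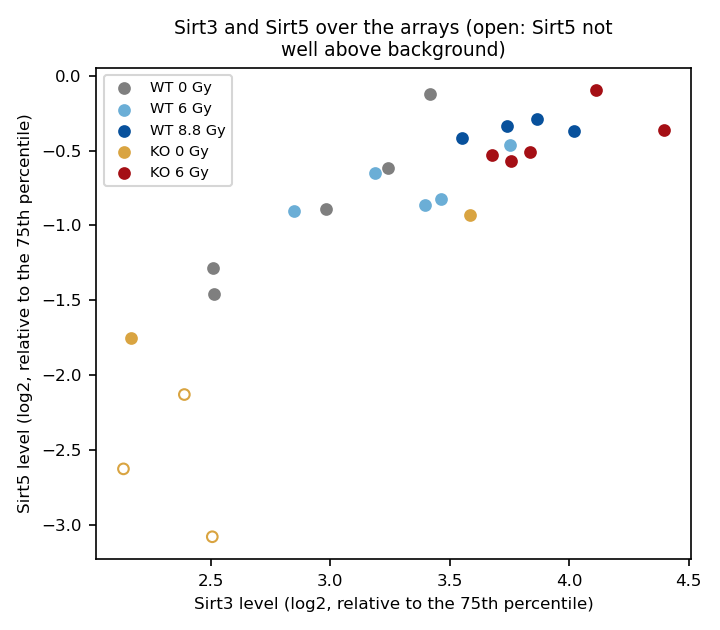
Sirt3 level (x axis) against Sirt5 level (y axis), both log2 relative to the array's 75th percentile, 1 point per array, coloured by group. Open points are arrays on which Sirt5 was not well above background, 3 knockout 0 Gy arrays at the low end of both axes.

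Blood composition moved with the groups, and its part in the Sirt3 and Sirt5 results was not tested. The mean level of 7 platelet markers was 4.49 in wild-type 0 Gy (range 3.66 to 5.46), 4.90 at 6 Gy (3.52 to 5.95), 5.76 at 8.8 Gy (5.34 to 6.48), 4.97 in knockout 0 Gy (4.46 to 5.43) and 6.09 in knockout 6 Gy blood (5.58 to 6.52). The 8 T cell markers, all detected in every group, stood in the same order at 3.61 (3.24 to 3.98), 2.39 (1.82 to 2.83), 1.46 (0.86 to 2.11), 3.46 (2.87 to 3.96) and 1.66 (1.07 to 2.25). The 8 B cell markers stood at 0.66 (0.38 to 0.89), -0.64 (-1.10 to -0.15), -1.27 (-1.39 to -1.02), 0.42 (-0.27 to 0.95) and -1.47 (-1.98 to -0.95), with Blk well above background on no array. The 8 erythroid markers stood at 2.84 (1.83 to 3.35), 0.95 (0.48 to 1.72), 1.54 (0.31 to 2.92), 3.75 (2.91 to 5.15) and 1.86 (1.66 to 2.10), with Epb4.2 at background level throughout the 3 irradiated groups. The 8 neutrophil markers stood at 3.57 (2.99 to 4.15), 4.41 (4.03 to 4.915) and 4.15 (3.54 to 4.59) in the wild-type groups by dose. In knockout blood they stood at 4.17 (3.62 to 4.98) at 0 Gy and 4.72 (4.28 to 5.27) at 6 Gy. In the groups in which Sirt3 rose, T cell, B cell and erythroid markers thus had lower means than in their 0 Gy groups. Platelet and neutrophil markers had higher means there. Wild-type 6 Gy blood, in which Sirt3 was not called, showed the same directions. The NK cell score averaged 0.98 in both knockout groups, and in wild type 1.11 at 0 Gy and 0.91 at 8.8 Gy. Over the 24 arrays the Sirt3 level had r = -0.84 with the B cell score, -0.75 with the T cell score and 0.57 with the platelet score, and the Sirt5 level had r = -0.61, -0.61 and 0.23. With the eosinophil and basophil score r was -0.66 for Sirt3 and -0.39 for Sirt5, and with the monocyte score -0.60 and -0.41. The neutrophil score had r = 0.35 with Sirt3 and 0.005 with Sirt5. With the erythroid score r was -0.56 for Sirt3 and -0.71 for Sirt5, for which it was the furthest from 0 of the 11 marker scores. The hepatocyte score had r = 0.27 with Sirt3 and 0.38 with Sirt5, and with it as a covariate the knockout differences were 1.37 for Sirt3 (adjusted p = 0.000523) and 1.61 for Sirt5 (adjusted p = 0.000259). For the heart muscle score r was 0.41 with Sirt3 and 0.37 with Sirt5, and for the Kupffer cell score 0.40 and 0.45. Of 6 heart muscle markers, 1 was detected on any knockout 0 Gy array, and 5 in each of the other groups. The Kupffer cell score averaged -1.65 in knockout 0 Gy and 0.83 in knockout 6 Gy blood. The part of these cells was not tested. Knockout 0 Gy replicate 1, whose hepatocyte score of 7.32 was the highest of its group (the others -2.41 to 1.52), also had the group's highest Sirt3 and Sirt5 levels.

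Sirt4, the third mitochondrial member, which acts as a lipoamidase on pyruvate dehydrogenase and ADP-ribosylates glutamate dehydrogenase, was called in none of the comparisons. Its brightest probe read -1.65, -2.10, -2.11, -2.34 and -2.03 in wild-type 0 Gy blood, -1.31, -1.83, -1.005, -1.91 and -1.37 at 6 Gy, and -1.59, -1.39, -1.92 and -1.95 at 8.8 Gy. In knockout blood it was well above background on 0 of 5 arrays at 0 Gy (measured mean -3.10) and on 4 of 5 at 6 Gy, where it read -1.71, -2.57, -2.38, -2.12 and -3.75, the last not well above background. No fold is given against the knockout 0 Gy group, because the lowest signals counted as well above background on those arrays averaged -1.96, above the Sirt4 mean of every group to which they were compared. The 5 knockout 0 Gy arrays measured below all 5 wild-type 0 Gy arrays, which did not pass the test (limma adjusted p = 0.0854) except without knockout 6 Gy replicate 5 or with median centring (adjusted p = 0.0461). The sign turned under normexp background correction, with scan day as a fixed block and with dim signals at the background limit, none of them called (adjusted p = 0.711, 0.999 and 0.828). On the other, dimmer Sirt4 probe the same difference was 0.07 ± 0.513 (SE, limma adjusted p = 0.949 over all probes). That probe was well above background on 2 of 5 wild-type and 1 of 5 knockout 0 Gy arrays. At 6 Gy Sirt4 was lower in knockout than in wild-type blood by a difference that also fell short (-1.02 ± 0.305, SE, adjusted p = 0.0703), and that passed without the 2 doubted arrays (-1.22, adjusted p = 0.031), without knockout 6 Gy replicate 1, and with the hepatocyte score as a covariate (-1.06, adjusted p = 0.0324). Within scan day 3, which held 3 knockout and 5 wild-type arrays of this comparison, the difference was -0.74. It was smaller and not called with median centring (-0.38, adjusted p = 0.319) and normexp background correction (-0.36, adjusted p = 0.301). The same held for quantile normalization (-0.56, adjusted p = 0.227) and slide as a fixed block (-0.56, adjusted p = 0.284). With the mean of the probes it was larger and not called (-1.21, adjusted p = 0.0506).

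Among the nuclear members, Sirt1, a deacetylase of p53, FOXO factors and histones, was called in none of the 8 comparisons. It read -0.35, 0.87, 0.13, 0.63 and -0.18 in wild-type 0 Gy blood, -0.16, -0.56, -0.49, -0.17 and -0.60 at 6 Gy, and -0.00, -0.50, -0.62 and -0.48 at 8.8 Gy. In knockout blood it read -0.17, 0.52, -0.95, 0.22 and 0.22 at 0 Gy, and -0.35, -0.42, -0.30, -0.45 and 0.27 at 6 Gy. The irradiated groups lay lower on average and overlapped their 0 Gy groups, whose spread was larger (SD 0.519 and 0.566, against 0.215 to 0.296). The wild-type difference was -0.62 ± 0.265 at 6 Gy (SE, limma adjusted p = 0.0852) and -0.62 ± 0.281 at 8.8 Gy (adjusted p = 0.135), and the knockout difference was -0.22 ± 0.265 (adjusted p = 0.571). The 6 Gy difference in wild type passed without knockout 0 Gy replicate 3 and with the hepatocyte score as a covariate (-0.71, adjusted p = 0.0194). It was smaller and not called with normexp background correction (-0.37, adjusted p = 0.106) and slide as a fixed block (-0.24, adjusted p = 0.907). Scan day as a fixed block gave -0.71 (adjusted p = 0.848).

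Sirt6, a chromatin deacetylase that acts in DNA repair and is known to ADP-ribosylate Parp1, was called in none of the comparisons, and its differences at 6 Gy, higher in wild type and lower in the knockout, fell short of the threshold. It read -0.32, -0.13, -0.24, 0.14 and -0.09 in wild-type 0 Gy blood, 0.37, 0.80, 0.56, -0.10 and 0.09 at 6 Gy, and -0.02, -0.12, -0.45 and -0.09 at 8.8 Gy. In knockout blood it read -0.19, -0.24, 0.35, 0.12 and 0.22 at 0 Gy, and -0.10, -0.23, -0.80, -0.49 and -0.09 at 6 Gy. The wild-type 6 Gy group was the highest and the knockout 6 Gy group the lowest, and their ranges just overlapped. The difference was 0.47 ± 0.199 in wild type (SE, limma adjusted p = 0.0795), -0.40 ± 0.199 in the knockout (adjusted p = 0.155), and -0.69 ± 0.199 between the genotypes at 6 Gy (adjusted p = 0.0687), where 0 of 7 sirtuins and 0.851% of all tested genes were called. The interaction was -0.87 ± 0.281 and did not pass (adjusted p = 0.0614). These Sirt6 values lay near the threshold: the wild-type response passed without wild-type 6 Gy replicate 4, the genotype difference without that array, without knockout 6 Gy replicate 1, with the hepatocyte score as a covariate or with slide as a random block, and the interaction without a filter on dim probes, with dim signals at the background limit, or without knockout 0 Gy replicate 1, knockout 6 Gy replicate 1 or 5, or wild-type 6 Gy replicate 4 or 5. The signs were no longer opposite with median centring (-0.31 in wild type, -0.36 in the knockout, and -0.05 for the interaction). They were both positive with slide (0.48 and 0.12) or scan day (0.36 and 0.12) as a fixed block, and within scan day 1 the knockout difference was 0.12. From 6 to 8.8 Gy in wild-type blood the difference was -0.51 ± 0.211 (adjusted p = 0.213), in a comparison in which limma called 0 of 7 sirtuins and 0% of all tested genes, while 1 sirtuin (Sirt6) and 2355 genes (18%) had an unadjusted p under 0.05.

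Sirt7, a nucleolar enzyme that promotes transcription of ribosomal DNA, ranged from 2.96 to 4.06 over the 24 arrays, and Sirt2, which deacetylates tubulin in the cytosol, from 1.33 to 2.29. Neither was called in any comparison. The Sirt7 group means fell between 3.40 (wild-type 6 Gy) and 3.80 (wild-type 0 Gy), a span of 0.40 with SDs of 0.142 to 0.351. Its largest differences from the 0 Gy group of the same genotype were in wild-type blood. They were -0.40 ± 0.208 at 6 Gy (SE, limma adjusted p = 0.153) and -0.38 ± 0.221 at 8.8 Gy (adjusted p = 0.256). The Sirt7 interaction was 0.39 ± 0.294 (adjusted p = 0.423). For Sirt2 the group means lay between 1.65 and 1.84, a span of 0.19 with SDs of 0.104 to 0.374, and the 95% confidence intervals of its differences from the 0 Gy group of the same genotype ran from -0.55 at the lowest to 0.34 at the highest. All neighbouring groups overlapped for both genes.

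Another scaling moved the results of all genes, with all 7 sirtuins among them, by the same amount. Centring each array on its median in place of the 75th percentile shifted the median of all tested genes by -0.78 in the wild-type 6 Gy comparison, and Sirt1 (-1.40, limma adjusted p = 0.0015), Sirt2 (-0.96, adjusted p = 0.00239) and Sirt7 (-1.18, adjusted p = 0.00315) then passed as lower. Sirt3 (-0.38), Sirt4 (-0.22), Sirt5 (-0.65) and Sirt6 (-0.31) turned negative there, and none of them was called. Such centring takes the same amount from every gene of an array, so differences relative to the shift stay close to those above by construction. Under the same centring the knockout differences of Sirt3 and Sirt5 were 1.44 and 1.73, both called.

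Probes of 1 gene did not all give the same picture. Of the 3 members with several probes, the dimmer probe of Sirt4 rose in wild-type blood at 6 Gy by 1.66 ± 0.513 (SE, limma adjusted p = 0.0218 over 19087 probes), that of Sirt6 by 1.18 ± 0.371 (adjusted p = 0.0237) and 1 of the 2 dimmer probes of Sirt7 by 0.69 ± 0.217 (adjusted p = 0.0231). The brightest Sirt7 probe went the other way in that comparison (-0.40). The dimmer Sirt4 probe was well above background on 2 of 5 wild-type 0 Gy arrays and on 5 of 5 at 6 Gy. The counts were 3 of 4 at 8.8 Gy, and 1 of 5 and 2 of 5 in knockout blood at 0 and 6 Gy. It thus passed the filter on dim signals only through wild-type 6 Gy, the group in which it was high. Its call there is a description, and its size rests on mostly dim 0 Gy signals, with no background limit applied. The dimmer Sirt6 probe read -3.15, -1.44, -2.23, -1.82 and -1.40 in wild-type 0 Gy blood and -0.82, -0.34, -0.52, -1.24 and -1.22 at 6 Gy, with no overlap between these groups. At 8.8 Gy in wild type and at 6 Gy in the knockout, no probe of Sirt4, Sirt6 or Sirt7 was called, and the Sirt6 probe was well above background on 1 of 5 knockout 0 Gy arrays. With the mean of all probes of a gene, Sirt4 (1.11, adjusted p = 0.0151) and Sirt6 (0.83, adjusted p = 0.0226) passed as higher at 6 Gy in wild-type blood. Both means include the dimmer probes above.

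**Figure D4:**
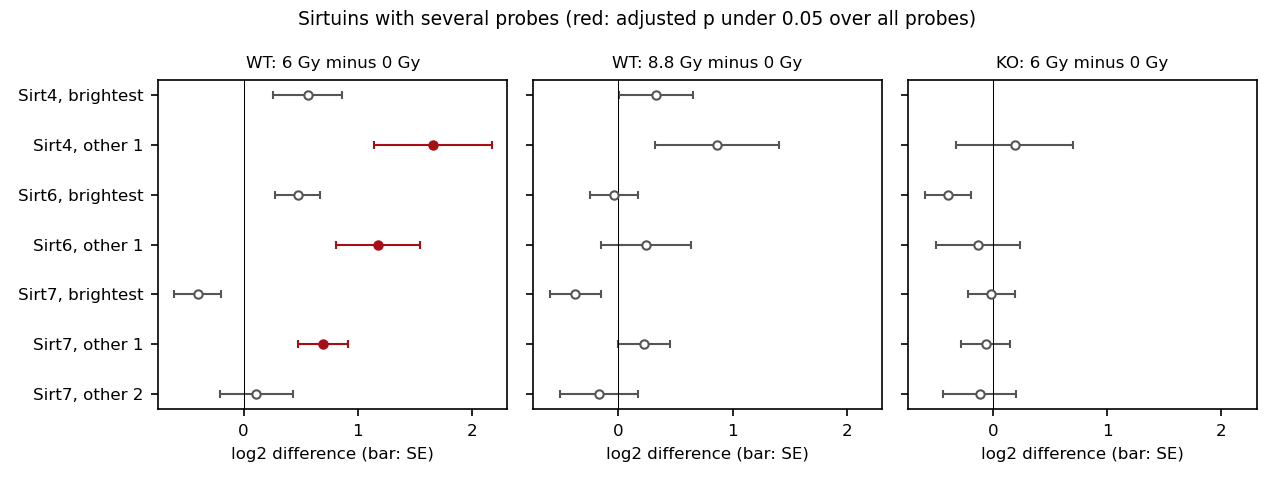
Log2 difference (points) with its SE (bars) for every probe of Sirt4, Sirt6 and Sirt7 in the 3 responses to X rays. In wild-type blood at 6 Gy, 3 of the dimmer probes are called higher (red), and none in the other panels. The brightest Sirt4 probe has no point in the knockout panel, since it was not well above background on any knockout 0 Gy array.

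The promoters of the 2 members that rose are shown because both rose in the knockout response and can be compared base by base. They are RefSeq windows on GRCm38.p6, mostly upstream of a gene's annotated start, printed 5′ to 3′ on the gene's strand, with matches to 3 motifs in capitals on either strand. The motifs are the E-box CACGTG, the ETS motif CCGGAAG and the ERR half-site TCAAGGT, none of which was found overlapping another in these windows. Sirt3 has 2 windows in the table and the one printed is at chr7:140882260-140882559 (minus strand). Sirt5 has 1, at chr13:43365285-43365584 (plus strand).
Sirt3: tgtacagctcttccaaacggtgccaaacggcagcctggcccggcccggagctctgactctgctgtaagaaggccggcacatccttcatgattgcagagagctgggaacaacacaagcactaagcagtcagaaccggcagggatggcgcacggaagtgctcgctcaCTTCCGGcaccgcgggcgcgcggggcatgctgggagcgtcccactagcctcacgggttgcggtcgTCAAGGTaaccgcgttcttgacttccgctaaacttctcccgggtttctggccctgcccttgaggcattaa
Sirt5: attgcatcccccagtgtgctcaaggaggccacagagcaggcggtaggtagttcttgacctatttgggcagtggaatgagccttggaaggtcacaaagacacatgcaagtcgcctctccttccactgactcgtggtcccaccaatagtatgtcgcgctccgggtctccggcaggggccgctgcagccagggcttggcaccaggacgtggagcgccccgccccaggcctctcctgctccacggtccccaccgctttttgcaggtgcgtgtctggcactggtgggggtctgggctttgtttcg

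The printed Sirt3 window holds 1 match to the ETS motif, on the strand opposite to the gene, and 1 to the ERR half-site, and the Sirt5 window holds a match to none of the 3. The Sirt3 window that is not printed also holds a match to none of them. The printed one extends past position 140882394, where the neighbouring gene Psmd13 begins on the opposite strand. Its letters and matches are therefore not those of Sirt3 alone. Of 32851 RefSeq promoter windows of this length, 8.86% hold the ETS motif and 3.50% the ERR half-site. Among the other members, the Sirt1 window holds 2 E-boxes (7.15% of all windows hold one), the Sirt7 window 2 ETS motifs, and 1 of the 2 Sirt6 windows 1 ETS motif. These matches describe letters and are not binding sites.

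The genes whose levels followed those of the sirtuins most closely were taken by Pearson's r over the 24 arrays, 3 per member, as a description. Sirt3 was closest to Ndufs4 (r = 0.938), a subunit of respiratory complex I, Klc4 (0.923) and Tmbim1 (0.923). The Sirt5 level was closest to Oxnad1 (0.943), Cdadc1 (0.925) and Nrbf2 (0.889). Sirt1 followed Rbm12 (0.940), Tpr (0.937) and Otud4 (0.931), and Sirt6 followed Gm10334 (0.911), Chaf1b (0.897), a subunit of chromatin assembly factor 1, and Prp2 (0.885). The likeness was weaker for Sirt4 (Man2b2 0.848, Cma1 0.817 and Lrrc41 0.813), Sirt7 (Pagr1a 0.842, Plrg1 0.806 and Lypla2 0.805) and Sirt2 (Nucb1 0.833, then Eno1b 0.798 and the glycolytic enzyme Eno1 0.791).

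Of 15 listed regulators of SIRT1, 13 were tested, of which 4 rose and 1 fell in wild-type blood at 6 Gy, 3 rose and 1 fell at 8.8 Gy, and 5 rose and 0 fell in the knockout response. Their medians were -0.01, 0.52 and -0.08, against 0.04, 0.03 and -0.07 over all tested genes. Of all tested genes, 15.5% rose and 10.9% fell at 6 Gy in wild type, 7.04% rose and 9.04% fell at 8.8 Gy, and 12.3% rose and 10.5% fell in the knockout, which is the background of this and the next 4 lists. Hic1, a p53 target that represses Sirt1 transcription, rose in wild-type blood by 2.26 ± 0.326 (SE, limma adjusted p = 9.77e-05) at 6 Gy and 2.70 ± 0.345 (adjusted p = 2.63e-05) at 8.8 Gy, from a 0 Gy group in which 3 of 5 arrays were well above background. In the knockout response Hic1 was at least 2.67-fold higher (adjusted p = 5.08e-07), since 0 of 5 arrays at 0 Gy and 5 of 5 at 6 Gy were well above background. Such a bound sets the mean of the brighter group against the lowest signals counted as well above background in the dimmer one. Dyrk3, a kinase that activates SIRT1 by phosphorylation, rose by 1.68 ± 0.211, 2.03 ± 0.224 and 2.02 ± 0.211 in wild type at 6 Gy, wild type at 8.8 Gy and the knockout (adjusted p = 2.07e-05, 3.76e-06 and 1.66e-06). Its signal was well above background on 2 of 5 knockout 0 Gy arrays, and with dim signals at the background limit the knockout difference was 1.84 ± 0.198 (adjusted p = 2.8e-06). Elavl1, an RNA-binding protein that stabilises Sirt1 mRNA, fell by 0.77 at 6 Gy in wild type (adjusted p = 0.00943), and Ctbp1, a corepressor that works with Hic1, fell by 0.71 at 8.8 Gy (adjusted p = 0.0373).

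Nuclear and cytosolic substrates and partners of sirtuins mostly fell where they were called, in comparisons in which the T cell, B cell and erythroid marker means given above were also lower, and the part of these cells was not tested. Of 35 tested, 0 rose and 12 fell in wild-type blood at 6 Gy (median -0.47), 1 rose and 7 fell at 8.8 Gy (median -0.48), and 1 rose and 8 fell in the knockout response (median -0.23). Xrcc6, the Ku70 subunit of the end-joining complex, fell in these comparisons, with differences of -0.78 ± 0.153, -0.79 ± 0.162 and -0.81 ± 0.153 (SE, limma adjusted p = 0.00159, 0.00284 and 0.000731). The cell-cycle gene Rb1 fell by 1.87 ± 0.369 at 6 Gy in wild type (adjusted p = 0.00162), and Myc fell by 1.47 ± 0.287 at 8.8 Gy (adjusted p = 0.00198). Ubtf, a factor for ribosomal DNA transcription, fell by 1.67 ± 0.353 in the knockout response (adjusted p = 0.00176), whereas Cdc20, an activator of the anaphase-promoting complex, rose by 0.80 ± 0.282 (adjusted p = 0.044). G6pdx, the first enzyme of the pentose phosphate pathway, rose by 0.80 ± 0.242 at 8.8 Gy in wild type (adjusted p = 0.0272). In the interaction, in which 5.16% of all tested genes were lower in the knockout response, 0 were higher and 1, Elk4, was lower (-4.11 ± 1.08, adjusted p = 0.0371).

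Mitochondrial sirtuin substrates moved in both directions. Of 18 tested, 1 rose and 5 fell in wild-type blood at 6 Gy (median -0.57), 2 rose and 2 fell at 8.8 Gy (median -0.13), and 3 rose and 1 fell in the knockout response (median 0.30). Sod2, the mitochondrial superoxide dismutase deacetylated by SIRT3, fell in all 3 responses, with differences of -1.76 ± 0.313, -1.30 ± 0.332 and -1.95 ± 0.313 (SE, limma adjusted p = 0.000722, 0.0106 and 0.000169). Sdha, a subunit of respiratory complex II, fell by 1.18 ± 0.245 at 6 Gy in wild type (adjusted p = 0.00229), and Acss1, a mitochondrial acetyl-CoA synthetase, fell by 1.54 ± 0.387 at 8.8 Gy (adjusted p = 0.00931). The mitochondrial dehydrogenase gene Aldh2 rose by 1.19 ± 0.328 at 8.8 Gy in wild type and by 1.41 ± 0.309 in the knockout response (adjusted p = 0.0163 and 0.00233), and Ppif, the matrix cyclophilin, by 1.07 ± 0.275 and 1.41 ± 0.259 (adjusted p = 0.0108 and 0.000605). In the interaction 3 of 18 were called higher and 1 lower, against 0.919% higher and 5.16% lower of all tested genes, among them Pdha1 (1.30 ± 0.345, adjusted p = 0.0373), Aldh2 (1.55 ± 0.438, adjusted p = 0.042) and, lower, Opa1 (-1.41 ± 0.371, adjusted p = 0.0371), a fusion protein of the inner membrane that had risen in wild type at 6 Gy (0.90 ± 0.262, adjusted p = 0.0163). Between the genotypes at 6 Gy, Aldh2 was the 1 member called, higher in the knockout (1.44 ± 0.309, adjusted p = 0.0388), where 0.36% of all tested genes were called higher and 0.49% lower. The cell markers given above moved in the same comparisons, and their part in these counts was not tested.

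Of 24 listed enzymes that make or consume NAD, 17 were tested, of which 1 rose and 2 fell in wild-type blood at 6 Gy, 0 rose and 1 fell at 8.8 Gy, and 1 rose and 2 fell in the knockout response. The medians were -0.47, 0.06 and 0.13. Acmsd, which diverts the tryptophan pathway away from NAD, fell in all 3, with differences of -3.07 ± 0.369, -2.16 ± 0.391 and -2.93 ± 0.369 (SE, limma adjusted p = 1.37e-05, 0.000999 and 1.36e-05). Nadk2, the mitochondrial NAD kinase, fell in wild type at 6 Gy (-1.01 ± 0.296) and in the knockout (-1.16 ± 0.296) (adjusted p = 0.0166 and 0.0067), and Bst1, an ectoenzyme that cleaves NAD, rose by 1.69 ± 0.552 and 1.73 ± 0.552 in the same responses (adjusted p = 0.0285 and 0.0267). Between the unirradiated genotypes 0 were higher and 1, Parp1 itself, was lower, at least 2.55-fold (adjusted p = 0.0306), where 0.636% of all tested genes were called higher and 0.046% lower.

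The zinc-dependent deacetylases, an unrelated family that removes acetyl groups from lysines without NAD, moved in both directions. Of 7 tested, 2 rose and 2 fell in wild-type blood at 6 Gy, 2 rose and 2 fell at 8.8 Gy, and 2 rose and 1 fell in the knockout response (medians 0.02, -0.69 and -0.13). Hdac4 rose by 0.85 ± 0.264, 1.37 ± 0.280 and 1.30 ± 0.264 (SE, limma adjusted p = 0.0221, 0.00263 and 0.00134), and Hdac7 fell, with differences of -1.17 ± 0.384, -1.57 ± 0.407 and -1.32 ± 0.384 (adjusted p = 0.0294, 0.0113 and 0.0155). Hdac1 fell in wild-type blood at 6 Gy (-1.09 ± 0.247) and at 8.8 Gy (-1.12 ± 0.262) (adjusted p = 0.00398 and 0.00629). The class IIa gene Hdac5 rose by 1.02 ± 0.253 at 8.8 Gy and by 0.69 ± 0.238 in the knockout (adjusted p = 0.0088 and 0.0386). Hdac9 rose by 2.31 ± 0.623 at 6 Gy in wild type (adjusted p = 0.011). It was well above background on 1 of 5 arrays at 0 Gy and 5 of 5 at 6 Gy. The size of the Hdac9 difference thus rests on mostly dim 0 Gy signals, and no value at the background limit is given.

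**Figure D5:**
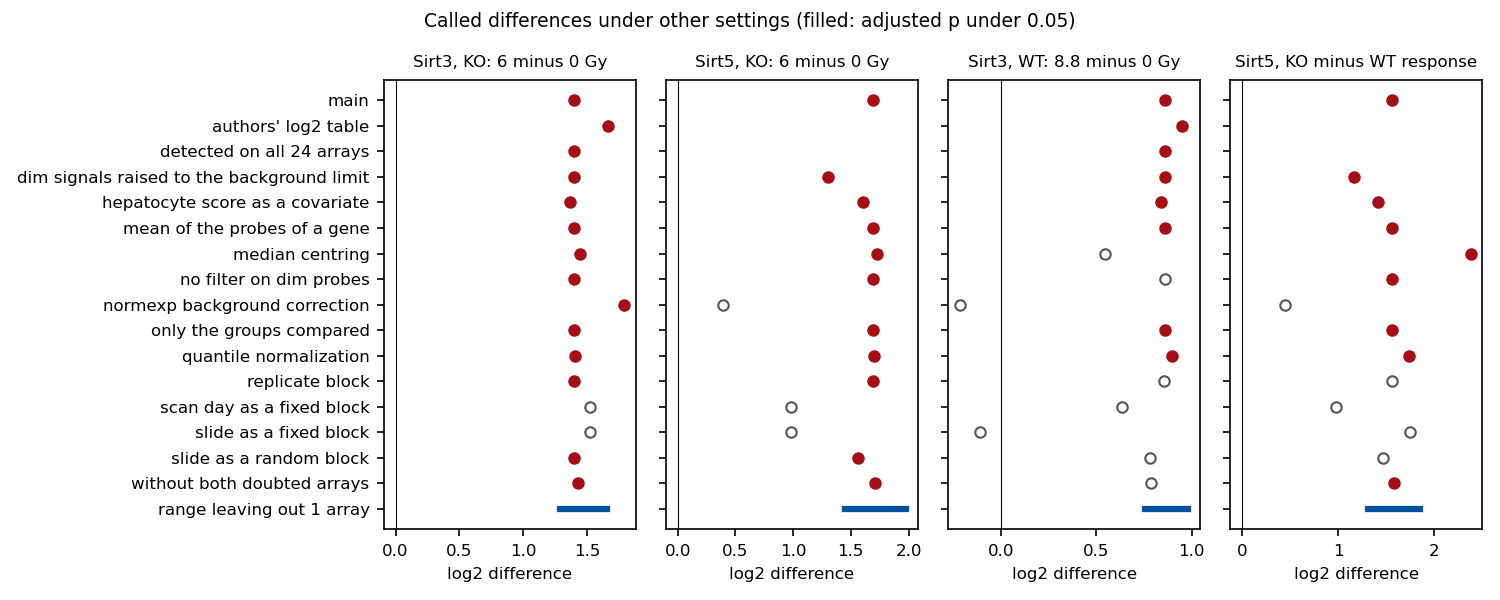
Log2 difference of the 4 called results under each other setting, with filled points for an adjusted p under 0.05 and a bar for the range on leaving out 1 array at a time. The knockout rise of Sirt3 lies to the right of 0 under every setting, while Sirt3 in wild-type blood at 8.8 Gy lies left of 0 under normexp correction and with slide as a fixed block. A setting without a point could not give a value.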

How the data were processed

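Whole-blood RNA of 24 mice was measured on 1-colour arrays, 1 mouse each per the labels. The deposited scanner files hold spot intensities, background-subtracted by Agilent Feature Extraction 11.5.1, per the file headers and the submitters' processing notes. The authors' deposited table holds log2 values of 10214 probes with 8376 empty cells. In it 98.85% of the values lay within 0.001 of 1 constant per array from the scanner values, with column medians from 7.63 to 8.09. How its constants, probes and empty cells were chosen stays unknown here, and the table, with 2 sirtuin probes, served as an alternative.

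Control and outlier-flagged spots were left out, the processed signal was taken to log2, the array's 75th percentile was subtracted, spots of a probe were averaged, and the probe with the highest mean stood for a gene. Genes detected above background by 4 or more arrays of a group were tested in R 4.3.3 with limma 3.58.1 (lmFit, then contrasts.fit and eBayes) on 5 group means over all 24 arrays, in 8 two-sided comparisons. The threshold was 0.05 after Benjamini-Hochberg adjustment over all tested genes, and the procedure was tested on simulated data. The members and the lists of related genes and cell markers were chosen with earlier results of these data known. Of each list, up to 2 genes called in each direction with the smallest adjusted p are named per comparison, and lists were counted, not tested. Comparisons that share a 0 Gy group are not independent. Alternatives covered background correction, scaling, probes, filters, blocks, a hepatocyte covariate and left-out arrays. The number of arrays limits the precision.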

Additional observations from a re-analysis of the deposited data

Results flagged for a closer look

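In 35 sets of a sirtuin in a group, the highest or lowest array was checked for a gap to its nearest neighbour, as a share of the group's range, above 0.710 for 5 arrays or 0.829 for 4. Chance passes about 1 in 20 such sets, and 2 arrays passed. Sirt1 in knockout 6 Gy replicate 5 read 0.27 against -0.45 to -0.30 on the other 4 arrays (gap share 0.796). Sirt3 in knockout 0 Gy replicate 1 read 3.58 against 2.13 to 2.51 (gap share 0.743), and that array also had a hepatocyte marker score of 7.32 against -2.41 to 1.52. Its part in the Sirt3 result was not tested beyond leaving it out, which raised the knockout difference to 1.66.

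The Sirt5 response to 6 Gy differed between the genotypes by 1.55 on the log2 scale (limma adjusted p = 0.0393 for the interaction). The wild-type difference was 0.13 and the knockout difference 1.69. The 2 irradiated groups differed by 0.33 (adjusted p = 0.558) and the 2 unirradiated groups by -1.23 (adjusted p = 0.0532).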

How the results depend on the processing

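The knockout rise of Sirt3 stayed above 0 under all 15 other settings run besides leaving out arrays and was called in 13, with values from 1.37 to 1.79; it was not called with slide (1.52, adjusted p = 0.136) or scan day (1.52, adjusted p = 0.165) as a fixed block. The knockout rise of Sirt5 was called in 10 of 13, and not with normexp correction (0.39), slide (0.98, adjusted p = 0.279) or scan day (0.98) as a fixed block. Sirt3 in wild-type blood at 8.8 Gy reversed with normexp correction (-0.22) and with slide as a fixed block (-0.11), and was called in 7 of 15; the cause was not tested. The Sirt5 interaction ranged from 0.45 to 2.38 and was called in 8 of 13.

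The number of sirtuins called moved as follows. In wild-type blood at 6 Gy it was 0 and became 1 with the authors' log2 table (Sirt6, by its dimmer probe) or the hepatocyte covariate (Sirt1), 2 with the mean of the probes and 3 with median centring. At 8.8 Gy it was 1 and became 0 with median centring, no filter, replicate block, scan-day block, either slide block or without the 2 doubted arrays, and 3 with normexp correction (Sirt2 and Sirt7 lower, Sirt4 higher). In the knockout response it was 2 and became 1 with the authors' table, with genes detected on all 24 arrays (both lack the Sirt5 probe) or with normexp correction, and 0 with a fixed block for slide or for scan day. Between the unirradiated genotypes it was 0 and became 1 with the hepatocyte covariate (Sirt5) or median centring (Sirt4). Between the genotypes at 6 Gy it was 0 and became 2 with the hepatocyte covariate (Sirt4, Sirt6), 3 with median centring (Sirt2, Sirt3, Sirt7), and 1 with slide as a random block (Sirt6) or without the doubted arrays (Sirt4). At equally lethal doses it was 0 and became 4 with normexp correction (Sirt2, Sirt3 and Sirt7 higher, Sirt4 lower in the knockout). In the interaction it was 1 and became 5 with median centring, which moved the median gene by 0.82, 2 without a filter or with dim signals raised to the background limit, a setting chosen after seeing the data (Sirt5, Sirt6), and 0 with the authors' table, genes detected on all arrays, normexp correction, replicate block, scan-day block or either slide block.

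On leaving out 1 array at a time, 0 to 1 sirtuins were called in each wild-type response, 2 to 3 in the knockout response, 0 to 2 between genotypes at 0 Gy and at 6 Gy, 0 at equally lethal doses and between wild-type doses, and 0 to 3 in the interaction. The knockout rises were called in all 24 refits, with adjusted p from 5.13e-05 to 0.00286 for Sirt3 and 2.94e-05 to 0.00187 for Sirt5.

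The replicate numbers of the labels did not pair the arrays: of 46 same-numbered pairs, 13 correlated above 0.1 (median -0.05), and 3 of 24 arrays correlated best with their own number. With dim signals at that limit, genes called in the interaction moved from 794 to 1740 and between the genotypes at 6 Gy from 111 to 49. With the replicate block the knockout differences were 1.40 (Sirt3) and 1.69 (Sirt5), both called, and the calls of Sirt3 at 8.8 Gy (0.86, adjusted p = 0.0539) and of the Sirt5 interaction (1.55, adjusted p = 0.06) were lost. Dim signals limit Sirt4 and Sirt5 in knockout 0 Gy blood.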

Other observations

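Psmd13, a proteasome subunit, starts beside Sirt3 on mouse chromosome 7: on GRCm38.p6 Sirt3 ends at 140882309 and Psmd13 begins at 140882394, on the opposite strand. It was looked at because of its place, after the Sirt3 values were known. Its difference in the knockout response was 0.41 ± 0.163 (SE, limma adjusted p = 0.0735), where Sirt3 rose by 1.40. In wild-type blood it was 0.03 at 6 Gy (adjusted p = 0.919) and 0.12 at 8.8 Gy (adjusted p = 0.66). The difference between the genes was not tested.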
